A study of Mus musculus with 12 samples.

Results

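The miR-15/16 family is a group of small regulatory RNAs that share the bases with which a miRNA pairs to its target mRNAs. Its 6 members measured here carry the array names mmu-miR-15a, mmu-miR-15b, mmu-miR-16, mmu-miR-195, mmu-miR-322 and mmu-miR-497, where mmu stands for the mouse. They were taken by name from the 696 mouse miRNAs on the array, guide strands only. A miRNA guide strand is loaded into an Argonaute protein and represses mRNAs that pair with its seed, bases 2 to 8 counted from the 5′ end. Members of this family are known for repressing cyclins, cyclin-dependent kinases and the survival factor Bcl2, and so for slowing the cell cycle. Osteoclasts, the bone-resorbing cells, form when precursors of the monocyte lineage leave the cell cycle and fuse.

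The samples were 12 cultures of bone marrow cells from male C57BL/6 mice aged 6 to 8 weeks, depleted of B and T lymphocytes with antibodies to B220/CD45R and CD3. All cultures received M-CSF (30 ng/ml), the growth factor of monocytes and macrophages, and RANKL (30 ng/ml), which turns such cells into osteoclasts. RNA was taken at day 1, day 3 or day 5 from 4 independent cultures each, and none of these cultures lacked RANKL, so time in culture and the response to RANKL cannot be told apart. The cells were an enriched mixture and not a sorted type, and in such bulk RNA fewer cells of a type and less RNA per cell cannot be told apart.

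The mature sequences from RefSeq (GRCm38.p6) are shown with the seed in capitals, because the shared seed is what makes these miRNAs a family.
miR-15a: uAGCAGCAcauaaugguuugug
miR-15b: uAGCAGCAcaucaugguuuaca
miR-16: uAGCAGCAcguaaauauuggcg
miR-195: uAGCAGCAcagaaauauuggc
miR-322: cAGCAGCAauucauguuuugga
miR-497: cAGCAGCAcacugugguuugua
All 6 members carried the seed AGCAGCA. Of the 1679 mature mouse miRNAs in the RefSeq table, 10 had these bases at positions 2 to 8 (0.596%), and 6 of the 10 were matched to the array, the members themselves. The sequences differ outside the seed.

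The members come from 4 places in the genome (GRCm38.p6). The mature sequence of miR-15a lies at chr14:61632075-61632096 and a copy of miR-16 at chr14:61631936-61631957, both on the minus strand within the long noncoding RNA gene Dleu2, with 54 bases between their hairpins. On chromosome 3 the plus strand holds miR-15b at chr3:69009775-69009796 and a second copy of miR-16 at chr3:69009918-69009939, within the bounds of the condensin gene Smc4, with 66 bases between the hairpins. The array signal of miR-16 is the sum of both copies. On the plus strand of chromosome 11, miR-497 lies at chr11:70234730-70234751 and miR-195 at chr11:70235062-70235082, with 241 bases between the hairpins. No gene was found around them, in a search that left out genes whose symbols begin with Mir. The sixth member, miR-322, lies apart from the rest on the minus strand at chrX:53054306-53054327, within the long noncoding RNA gene C430049B03Rik, next to miR-503 and miR-351.

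Signals are fluorescence intensities summed over the probes of a miRNA. They were quantile normalized over the 334 miRNAs detected on at least 1 array and are given as log2 values, unless total signals, the linear values before normalization, are named. Each member was read by 2 probes of 10 spots, and no spot of a member was saturated. Before normalization the summed signal of the array averaged 58.6% of the day 1 mean at day 3 and 80.7% at day 5. The arrays of days 1 and 5 lay on 1 slide, in different rows, and those of day 3 on another slide. Day 3 and its slide cannot be told apart, and neither can day and row for days 1 and 5. The array of day 5 replicate 4 stood apart, with 186 miRNAs detected against 248 to 269 on the others of that day. Myeloid miRNAs (miR-223, miR-142-3p and miR-142-5p) were detected on all 12 arrays.

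The changes in the family were small, and from day 1 to day 5 the values of miR-322 moved differently from those of miR-15a, miR-15b, miR-16 and miR-195. That difference was called only by limma fits added after the data had been seen. The planned permutation test within arrays passed 0 of 10 pairs of members after adjustment and could not decide it. By the moderated F test over the 3 days, 5 of the 6 members changed over time (miR-15a, miR-15b, miR-16, miR-195 and miR-322), where 62.9% of the 334 tested miRNAs did. None of the 6 also differed by more than 2-fold between a pair of days by limma, a mark reached by 46.7% of the tested miRNAs, and 1 member did so at an unadjusted p under 0.05. The median size of a member's log2 change from day 1 to day 5 was 0.42, and that of all tested miRNAs was 1.27. The median signed change from day 1 to day 5 was −0.22 in the family and 0.11 over all tested miRNAs. From day 1 to day 3 the corresponding medians were −0.42 and 0.18.

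**Figure D1:**
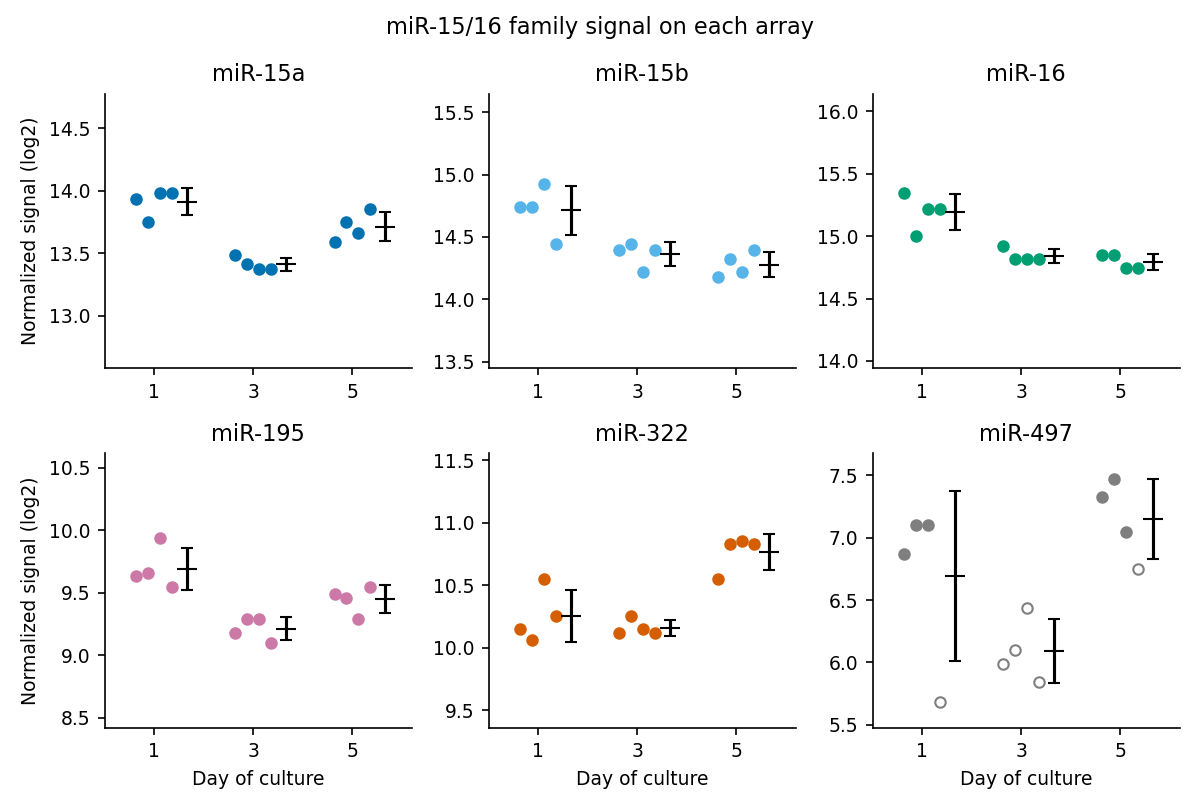
Quantile normalized signal (log2) of each member on each of the 12 arrays by day of culture, 4 arrays a day, with open circles where the member was not detected; black marks give the mean ± SD. The signals of miR-15a, miR-15b, miR-16 and miR-195 lay highest at day 1, while miR-322 had its highest mean at day 5, an order of days that turned for miR-322 without normalization between arrays.

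Of the chromosome 14 pair, mmu-miR-15a had normalized signals of 13.93, 13.75, 13.98 and 13.98 on the 4 arrays of day 1. At day 3 they were 13.49, 13.41, 13.37 and 13.37, and at day 5 they were 13.59, 13.75, 13.66 and 13.85. All arrays of day 3 were below those of day 1, and day 5 lay between, overlapping with day 1. The fall from day 1 to day 3 was −0.50 ± 0.08 (SE) on the log2 scale (adjusted p = 0.000321), so that the level fell by 29.4%, and it lost its call when arrays were scaled to the median (adjusted p = 0.0255) or to the 75th percentile of all miRNAs (0.0496). The day 5 level differed from day 1 by −0.20 ± 0.08 (adjusted p = 0.0466) and from day 3 by 0.30 ± 0.08 (adjusted p = 0.0141), neither past the threshold of 0.01. The negative sign at day 5 held in all 31 alternatives run, and the positive one against day 3 in 29 of 30, with −0.03 when arrays were scaled to the 75th percentile of detected miRNAs.

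Its partner miR-16 is read from both the chromosome 14 and the chromosome 3 copies. The normalized signals of mmu-miR-16 were 15.34, 15.002, 15.21 and 15.21 at day 1, and 14.92, 14.81, 14.81 and 14.81 at day 3. At day 5 they were 14.85, 14.85, 14.74 and 14.74. No array of day 3 or day 5 reached the lowest of day 1, and days 3 and 5 overlapped. It fell by day 3 (−0.35 ± 0.08, adjusted p = 0.0031) and was likewise lower at day 5 than at day 1 (−0.40 ± 0.08, adjusted p = 0.00115). The exact two-sided permutation test gave 0.0286 for each of these comparisons, the smallest p that 4 arrays against 4 allow. The day 3 call was lost without replicate 1 of day 1 (adjusted p = 0.0109), without replicate 2 (0.0109) or replicate 3 (0.01003) of day 3, without replicate 4 of all days (0.0170) and with the processed spot signal (0.0898). The day 5 call was lost with the brightest probe alone (0.0228) and with the processed spot signal (0.0316). Between days 3 and 5 it differed by −0.04 ± 0.08 (95% interval −0.22 to 0.13).

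On chromosome 3, mmu-miR-15b had normalized signals of 14.74, 14.74, 14.92 and 14.45 at day 1, and 14.39, 14.45, 14.22 and 14.39 at day 3. At day 5 they were 14.18, 14.32, 14.22 and 14.39. Here all arrays of day 5 were below those of day 1, while day 3 met day 1 at a single array, replicate 4 of day 1. The day 5 level was lower than that of day 1 (−0.43 ± 0.11, adjusted p = 0.00371), where it fell by 26.0%. Day 3 differed from day 1 by −0.35 ± 0.11 (adjusted p = 0.0140). Without replicate 4 of day 1 the day 3 difference was −0.42 (adjusted p = 0.00211) and passed. The day 5 call was lost in 9 of 31 alternatives. Among these were the fits without replicate 1 of day 1 (adjusted p = 0.0121), replicate 1 of day 5 (0.0114) or replicate 3 of day 5 (0.0119). It was also lost with no normalization (0.0229), the median (0.187), the 75th percentile of all miRNAs (0.0786) and normexp background correction (0.0124). The replicate block (0.0134) and days 1 and 5 fitted alone (0.0160) lost it as well.

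Of the chromosome 11 pair, mmu-miR-195 had normalized signals of 9.63, 9.66, 9.94 and 9.55 at day 1. They were 9.18, 9.29, 9.29 and 9.10 at day 3, and 9.49, 9.46, 9.29 and 9.55 at day 5. The arrays of day 3 lay below all of day 1, and those of day 5 reached up to the lowest of day 1. The fall to day 3 was −0.48 ± 0.10 (adjusted p = 0.00171), and the day 5 difference from day 1 was −0.25 ± 0.10 (adjusted p = 0.0463). These sizes depended on which miRNAs were normalized together. Over the miRNAs detected on all 12 arrays alone they were −0.94 and −0.80, the second then with an adjusted p of 7.6e-06. The day 3 call was lost in 1 of 30 alternatives, the processed spot signal (−0.93 ± 0.60, adjusted p = 0.226). It was kept with the brightest probe alone (−0.45, adjusted p = 0.00146). On normalized probe signals, however, neither probe of miR-195 passed the threshold between days 1 and 3. The shorter probe gave −0.50 ± 0.29 (adjusted p = 0.179) and the longer −0.28 ± 0.08 (0.0171).

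Its neighbour mmu-miR-497 was the dimmest member and was detected on 3 arrays of day 1, none of day 3 and 3 of day 5. The normalized signals were 6.87, 7.10, 7.10 and 5.68 at day 1, 5.99, 6.10, 6.44 and 5.84 at day 3, and 7.33, 7.47, 7.04 and 6.74 at day 5. After normalization the undetected array of day 1, replicate 4, was lower than any other array of the series, and all arrays of day 5 lay above those of day 3. Before normalization its total signal of 70.5 lay above those of day 3 (36.6 to 57.3). Since day 3 gives only a bound, miR-497 was at least 1.87-fold higher at day 5 than at day 3 (adjusted p of the fit 0.0224, not past 0.01). That bound takes the lowest signal of any detected miRNA on each day 3 array, or miR-497's own where higher, and no fold above 1 remained with the 5th percentile of detected signals in its place. The F test gave an adjusted p of 0.0306, so this member was the exception among the 6. Day 1 was at least 1.36-fold higher than day 3 (adjusted p of the fit 0.115), again with no fold above 1 by the 5th percentile. That adjusted p was 0.00217 without replicate 4 of day 1. With no normalization and all arrays kept it was 0.00171, for a log2 difference of −1.57 between days 3 and 1. The call thus depended on 1 undetected array and on the scaling.

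The X-linked member mmu-miR-322 was higher at day 5 than at day 3, and no other member passed in that comparison. Its normalized signals were 10.15, 10.06, 10.55 and 10.25 at day 1, and 10.12, 10.25, 10.15 and 10.12 at day 3. At day 5 they were 10.55, 10.83, 10.85 and 10.83. Days 1 and 3 overlapped, and 3 of the 4 arrays of day 5 lay above every array of the earlier days, with replicate 1 of day 5 level with replicate 3 of day 1. With quantile normalization over all tested miRNAs, it was higher at day 5 than at day 1 by 0.51 ± 0.11 (adjusted p = 0.00213). Quantile normalization over the miRNAs detected on all 12 arrays alone gave 0.12 (adjusted p = 0.227), and the call was lost. By contrast, miR-322 changed by −0.07 (adjusted p = 0.783) with none and by −0.08 (adjusted p = 0.546) with arrays scaled to the 75th percentile of detected miRNAs. Against day 3 it rose by 0.60 ± 0.11 (adjusted p = 0.00196), and this sign held in all 30 alternatives run. The call was lost in 4 of them, with 0.31 (adjusted p = 0.0398) for the 75th percentile of detected miRNAs, 0.55 (0.0350) for that of all miRNAs, 0.63 (0.0133) for the median and 0.56 (0.0189) without replicate 4 of all days. The day 3 level differed from that of day 1 by −0.09 ± 0.11 (95% interval −0.35 to 0.16). Its total signals were 1940.5, 1583, 2251 and 1224 at day 1, 898, 773, 739.7 and 755 at day 3, and 1709.9, 1504, 1714 and 1596 at day 5. On this linear scale day 5 returned to within the range of day 1 without passing it.

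Read over all members, day 3 was lower than day 1 for 3 of 6 (miR-15a, miR-16 and miR-195) and higher for 0, where 25.1% of the tested miRNAs were lower and 27.2% higher (52.4% in either direction). At an unadjusted p under 0.05, limma counted 4 lower and 0 higher. At day 5, 2 members were lower than at day 1 (miR-15b and miR-16), against 29.0% of all tested miRNAs, and 1 was higher (miR-322), against 31.7% (60.8% in either direction). Between days 3 and 5 miR-322 alone passed, as the higher at day 5, where 14.7% of all tested miRNAs were higher (25.4% in either direction). The arrays did not overlap between days 1 and 5 for 2 members (62.6% of tested miRNAs), between days 1 and 3 for 3 (59.6%) and between days 3 and 5 for 3 (39.2%).

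**Figure D2:**
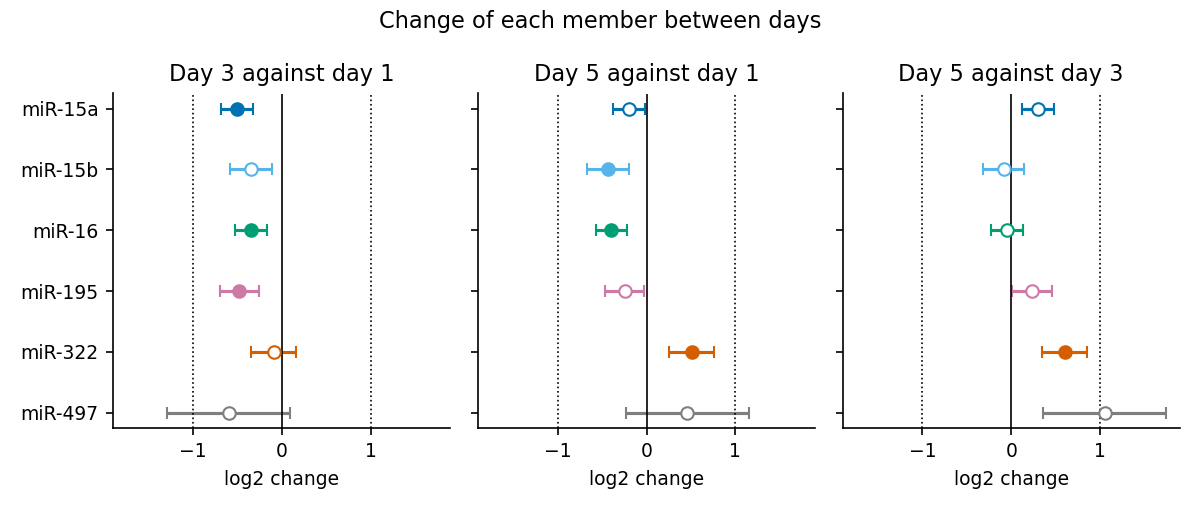
Log2 change of each member between pairs of days with its 95% confidence interval from the limma fit; filled circles passed an adjusted p of 0.01 and dotted lines mark 2-fold. In the comparison of days 3 and 1, miR-15a, miR-16 and miR-195 passed left of 0 while the intervals of miR-322 and miR-497 cross it, and miR-322 lay right of 0 at day 5, with a sign against day 1 that turned when arrays were not normalized.

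Whether the members changed unequally can be read on each array by itself, where the array's overall brightness cancels. The difference between a member and miR-322 was taken from the total signals without normalization and set to 0 at the day 1 mean. For miR-16 it ranged from −0.21 to 0.16 at day 1, from −0.29 to −0.16 at day 3 and from −0.77 to −0.64 at day 5. For miR-15b it ranged from −0.30 to 0.14 at day 1, from −0.12 to −0.05 at day 3 and from −0.76 to −0.55 at day 5. All arrays of day 5 lay below all of day 1 for both.

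The same held for miR-15a, with −0.12 to 0.12 at day 1 and −0.47 to −0.35 at day 5, and for miR-195, with −0.13 to 0.06 and −0.76 to −0.42. From day 1 to day 5 these 4 members thus lost 0.40 (miR-15a), 0.62 (miR-15b), 0.71 (miR-16) and 0.59 (miR-195) on the log2 scale relative to miR-322. With quantile normalized values the losses were 0.71, 0.94, 0.91 and 0.76. Among the 10 pairs of the 5 members detected on all 12 arrays, the 4 pairs with miR-322 reached the smallest exact permutation p of 0.0286 (two-sided), as did miR-15a against miR-16 without normalization. After adjustment over the 10 pairs, 0 passed 0.05, with 4 pairs on normalized and 5 on unnormalized values under 0.05 before adjustment. For the pairs with miR-322 the adjusted p was 0.0714 on normalized and 0.0571 on unnormalized values. When only 4 or 5 pairs reach it, even the smallest possible p cannot pass after this adjustment. The adjusted test therefore could not decide whether these pairs changed.

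In a limma fit added after the data had been seen, miR-322 was subtracted from every miRNA on its array and the test was run over the other 333. On unnormalized values the differences of days 5 and 1 were −0.40 ± 0.08 for miR-15a (adjusted p = 0.000976), −0.62 ± 0.11 for miR-15b (0.000466), −0.71 ± 0.09 for miR-16 (5.3e-05) and −0.59 ± 0.09 for miR-195 (0.000272). With miR-16 subtracted in place of miR-322, miR-15a lost less than miR-16 (0.31 ± 0.06, adjusted p = 0.00111), though not with quantile normalized values (0.20 ± 0.10, adjusted p = 0.0916). The other 5 pairs did not pass on either scale. How many of all 333 miRNAs passed in these fits was not counted, so the values do not show a change particular to the members. From day 1 to day 3 none of the 4 pairs with miR-322 passed on unnormalized values, where adjusted p lay between 0.0528 and 0.531. On quantile normalized values miR-15a did at that step (−0.41 ± 0.11, adjusted p = 0.00734).

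**Figure D3:**
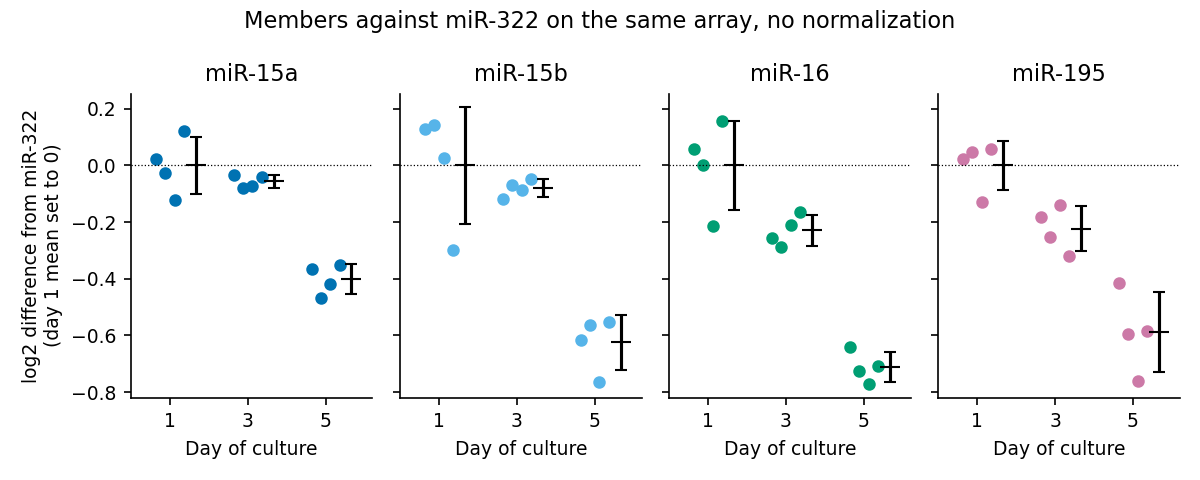
Log2 difference of total signal between each of 4 members and miR-322 on the same array, without normalization between arrays, by day of culture, with the day 1 mean set to 0; points are arrays and black marks give the mean ± SD of 4 arrays. In all 4 panels the day 5 arrays lie below 0, with means from −0.40 to −0.71, and below every array of day 1.

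The direction of miR-322 from day 1 to day 5 turned with the scaling. Its change was nevertheless above those of miR-15a, miR-15b, miR-16 and miR-195 in 31 of 32 settings, the exception being the processed spot signal, where miR-195 had 0.58 ± 0.60 and miR-322 0.56 ± 0.10. Scaling by a constant per array cancels in differences between members, so those settings necessarily share the order found without normalization. Settings that changed only the test, the threshold or the floor repeated the main values. The count is therefore not one of independent checks. Without normalization the median of all tested miRNAs moved by −0.50 from day 1 to day 5, against 0.11 with quantile normalization. The change of miR-322 was then −0.07, as given above. Scaling to the median signal gave it 0.27 (adjusted p = 0.163) and scaling to the 75th percentile of all miRNAs 0.23 (adjusted p = 0.2497). Its size under quantile normalization also depended on the miRNAs included, with 0.12 over those detected on all 12 arrays. The values that the authors normalized, fitted in the same way, gave a change past the threshold for 3 members, 1 higher (miR-322) and 2 lower.

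**Figure D4:**
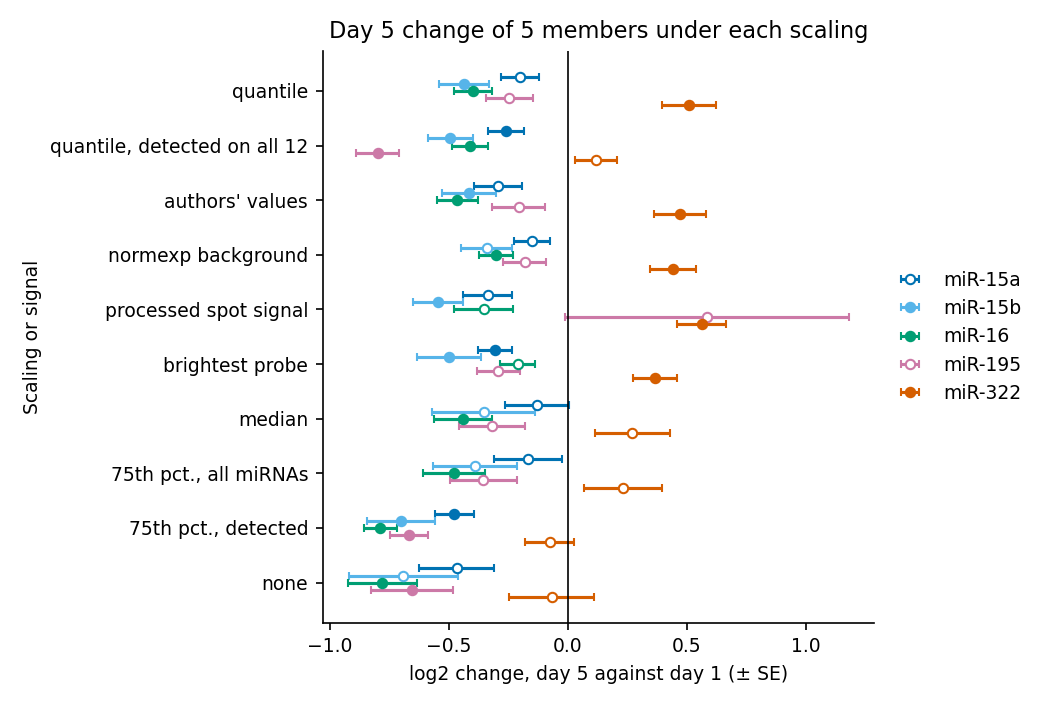
Log2 change from day 1 to day 5 (± SE, n = 4 arrays a day) of the 5 members detected on all arrays, under quantile normalization and 9 other ways of scaling or preparing the signal; filled circles passed an adjusted p of 0.01. miR-322 lies to the right of the other 4 except with the processed spot signal, where miR-195 has a wide error and lies level with it, and its own value is below 0 in the lowest 2 rows. Rows scaled by a constant per array, and the row with none, necessarily share the same differences between members.

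The paired probes of a member allow a check within the array. For miR-322 the shorter and the longer probe gave day 5 differences from day 1 of 0.49 ± 0.11 and 0.52 ± 0.10 on normalized probe signals. For miR-15a they gave −0.31 ± 0.07 and −0.25 ± 0.05, and for miR-15b −0.39 ± 0.11 and −0.47 ± 0.12. These 3 members had probes that moved alike between days 1 and 5. Both probes of miR-15a passed 0.01 there (adjusted p = 0.00272 and 0.00127), where its summed signal did not. From day 1 to day 3 they fell by −0.35 ± 0.07 and −0.36 ± 0.05 (adjusted p = 0.0016 and 0.000166), less than the −0.50 ± 0.08 of the summed signal. From day 3 to day 5 the miR-15a probes differed by 0.04 ± 0.07 and 0.10 ± 0.05 (adjusted p = 0.742 and 0.173). Its summed signal differed by 0.30 ± 0.08, so the return towards day 1 was smaller on single probes. The probes of miR-16 disagreed in size, with −0.54 ± 0.06 for the shorter and −0.18 ± 0.07 for the longer, and those of miR-195 in sign, with 0.16 ± 0.29 for the dim shorter probe and −0.11 ± 0.08 for the longer. Over its full length a probe of miR-195 leaves only 2 bases unpaired with miR-16, the nearest pair in the family, and miR-16 probes leave 3 unpaired with miR-195. Other members' probes leave 4 to 6 bases unpaired with their closest relative, and cross-hybridization was not tested.

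Beyond the members, the array held relatives by seed. The sequences of miR-103 and miR-107 are shown because the letters of the family's seed start in them at base 1 and not at base 2. That of miR-503, a neighbour of miR-322, shares 6 of the 7 seed bases with the family. Capitals again mark bases 2 to 8.
miR-103: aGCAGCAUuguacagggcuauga
miR-107: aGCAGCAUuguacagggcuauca
miR-503: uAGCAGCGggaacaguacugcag
The pair miR-103 and miR-107, hosted in pantothenate kinase genes, went up from day 1 to day 5 where most of the family did not. For miR-103 the normalized signals were 12.36, 12.36, 12.47 and 12.31 at day 1, 12.82, 12.95, 12.95 and 13.00 at day 3, and 13.11, 13.28, 13.49 and 13.49 at day 5. After normalization the days did not overlap, and the change from day 1 to day 5 was 0.96 ± 0.09 (adjusted p = 5.2e-06). For miR-107 it was 0.44 ± 0.09 (adjusted p = 0.000905). With no normalization these changes were 0.74 and 0.37, but from day 1 to day 3 the signals fell, by −0.29 for miR-103 and −0.48 for miR-107. The total signals of miR-103 then overlapped between day 1 (5119 to 8042) and day 3 (5069 to 6110). The dim miR-503 was detected on 4 arrays of day 1, 0 of day 3 and 3 of day 5, and its F test did not pass (adjusted p = 0.177). The list of relatives also named miR-1907, from background knowledge. Its detection was limited to 3 arrays of day 1, where it was at least 5.08-fold higher than at day 3 (adjusted p of the fit 0.00393) and at least 4.82-fold higher than at day 5 (0.00749), bounds that fell to 1.09-fold and 1.78-fold with the 5th percentile of detected signals.

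The hairpins of the members also give opposite strands. The opposite strand of miR-15b was detected on all 12 arrays, with total signals between 94.0 and 219.5, and its level at day 5 differed from day 1 by 0.23 ± 0.19 (adjusted p = 0.316). The opposite strands miR-15a* and miR-16-1* were detected on no array. That of miR-322 was detected on 1 array, replicate 1 of day 5, so its change cannot be measured. Of 9 listed neighbours of miR-322 in its X chromosome cluster, 8 were on the array and 3 of the listed were detected anywhere (miR-503, miR-351 and miR-450a). Among these miR-450a fell from day 1 to day 3 (−0.72 ± 0.15, adjusted p = 0.00215) and rose from day 3 to day 5 (0.66 ± 0.15, adjusted p = 0.00646), leaving −0.06 ± 0.15 over the whole course. Its detection on 4, 1 and 3 arrays of days 1, 3 and 5 followed these levels. Outside that list, and named after its values were seen, miR-450a-2* was detected on 4, 4 and 3 arrays of these days. Its total signals were 383, 357, 687 and 301 at day 1, 158, 154, 150.5 and 128 at day 3, and 71.0, 60.03, 32.6 and −117 at day 5. The days did not overlap, and it was lower at day 5 than at day 1 (adjusted p = 0.00636), with a size that depends on the floor set for the negative value.

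Other miRNA families are known for their part in the cell cycle. Of 15 miRNAs of the let-7, miR-34 and miR-26 families, which restrain it, 8 were higher at day 5 than at day 1 (31.7% of all tested miRNAs) and 0 lower (29.0%), with 0 lower at an unadjusted p under 0.05 in the same limma fit too. The median change was 1.00, and 0.69 over the 12 detected on all arrays, against −0.22 in the miR-15/16 family. Among them let-7e rose by 2.38 ± 0.24 (adjusted p = 6.7e-06), miR-98 by 1.27 ± 0.16 (3.0e-05) and miR-34a, a target of p53, by 1.00 ± 0.12 (2.5e-05). Of 10 measured miRNAs of the miR-17 and miR-106b clusters and their relatives, which promote proliferation, 6 were lower and 3 higher, against the same shares of 29.0% and 31.7%, with a median of −0.61. Among these miR-92a changed by −0.96 ± 0.08 (adjusted p = 1.4e-06) and miR-25 by −0.95 ± 0.06 (1.5e-07), while miR-19a rose by 1.05 ± 0.16 (0.000122). The changes of the 6 members ran from −0.43 to 0.51, a range that also holds the changes of let-7g (0.17 ± 0.08), let-7i (0.20 ± 0.07), miR-26a (0.25 ± 0.10), miR-26b (−0.06 ± 0.10) and miR-106b (−0.16 ± 0.13).

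**Figure D5:**
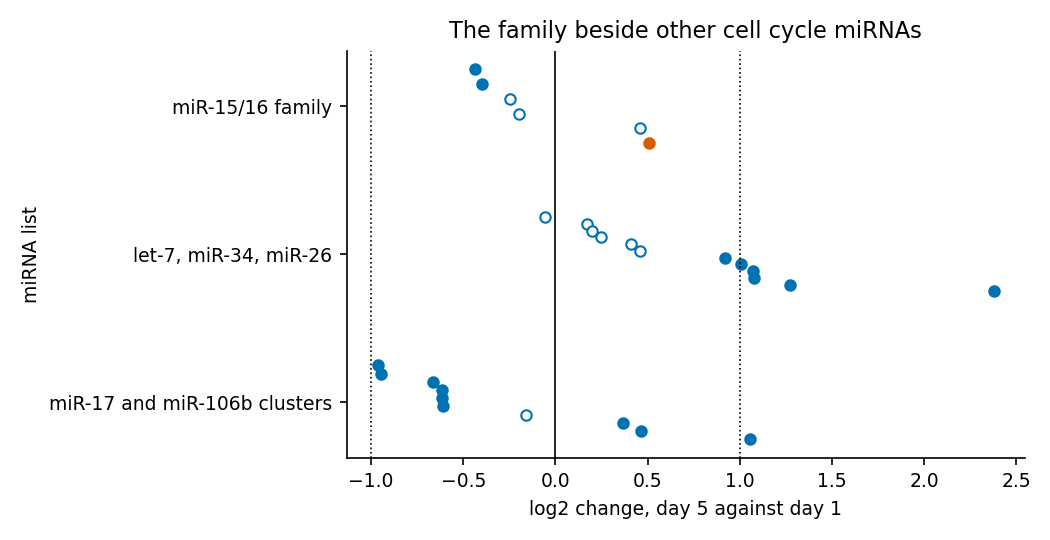
Log2 change from day 1 to day 5 of the 6 family members (miR-322 in orange), of 12 miRNAs of the let-7, miR-34 and miR-26 families and of 10 of the miR-17 and miR-106b clusters, each detected on at least 1 array of both days; filled circles passed an adjusted p of 0.01 and dotted lines mark 2-fold. The members stay between the dotted lines, and miR-322 is the member farthest to the right with quantile normalization.

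The closest patterns among the 147 other miRNAs detected on all 12 arrays were ranked by the root mean square difference of log2 values centred on their means. For miR-16 these were the myeloid miR-223 (0.08), miR-148a (0.14) and miR-93 (0.15). For miR-15b they were miR-223 (0.12), miR-148a and miR-10a. The pattern of miR-15a was nearest to that of another member, miR-195 (0.12), followed by miR-106b (0.13). For miR-322 the closest were miR-26a (0.18), miR-148b (0.20) and miR-30e (0.20), and the other 4 members ranked 35 to 61 of 147. All of these points share the 12 arrays and their normalization, so the distances describe the arrays and carry no test.

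Markers of other cells moved with the same days. The summed normalized linear signal of the erythroid miRNAs, of which miR-451 and miR-144 were measured out of 4 listed, was 25488 to 38092 at day 1, 1285 to 2139 at day 3 and 136 to 268 at day 5, and miR-144 was detected on no array after day 1. Endothelial and megakaryocytic miR-126-3p was likewise detected at day 1 alone. Both were lower on the days on which miR-15b and miR-16 were lower, and their part in the result was not tested. The sum of 5 stromal miRNAs (miR-214, miR-145, miR-143 and both arms of miR-199a) was 437 to 666 at day 1, 591 to 669 at day 3 and 2600.1 to 3630.4 at day 5, when miR-145 was detected on no array. It was higher at day 5, when miR-322 was higher, and its part in that result was not tested. Lymphoid miRNAs summed to 1839.7 to 2758 at day 1 and 1626 to 2229.8 at day 5, and miR-150, their defining member, was detected on no array of days 3 and 5. Without replicate 4 of all days, a choice made after seeing the data, the day 5 change of miR-322 was 0.48 (adjusted p = 0.0183), that of miR-16 −0.37 (0.00992) and that of miR-15b −0.54 (0.00123), so the call of miR-322 was lost with 9 arrays.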

How the data were processed

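Single-colour miRNA arrays were read for 12 cultures, 4 per day at days 1, 3 and 5. The scanner files deposited by the authors, written by Feature Extraction 9.5.3.1, hold background-subtracted linear intensity values, per spot and summed per miRNA, with a mark for detection and no normalization between arrays. The authors also deposited log2 values that they quantile normalized in GeneSpring, with undetected values empty; these served as an alternative. Total probe signals from the scanner files were used for single probes, and the median processed spot intensity of a miRNA served as a further alternative.

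Of 696 miRNAs, 334 had a detection mark on 1 array or more, and their total gene signals were quantile normalized (limma 3.58.1, R 4.3.3), raised to a floor of 1 and log2 transformed. A mean per day was fitted with lmFit and eBayes, and p-values were adjusted over all 334 (Benjamini and Hochberg) with a threshold of 0.01. ± gives the SE of the fit, and n is 4 arrays a day throughout. Single values were compared by exact two-sided permutation, and pairs of members within arrays with adjustment over 10 pairs. Python 3.11.15 with pandas 2.3.3, numpy 2.4.6, scipy 1.17.1 and matplotlib 3.10.9 served for tables, permutation tests and figures. The number of arrays limits the precision.

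Array names were matched to RefSeq (GRCm38.p6) by probe sequence, which gave 1 mature miRNA for 551 of 696. Names given here are the members, their opposite strands, relatives by seed, neighbours of miR-322, the lists of cell cycle and marker miRNAs, and the 3 closest patterns. The members and lists were chosen with earlier results of these data known. Opposite strands of miR-195 and miR-497, miR-106a, miR-363, miR-486 and miR-144* were not analysed here.

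Alternatives changed the filter, the scaling, the probe summary, the background correction, the floor, the test, the threshold, the replicate block and the arrays, each in turn.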

Additional observations from a re-analysis of the deposited data

Results flagged for a closer look

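Among 18 groups of 4 arrays (6 members at 3 days), 3 held an array far from the other 3, where chance gives about 1 in 20 groups. On replicate 1 of day 3, miR-16 stood at 14.92 while the others were tied at 14.81 after quantile normalization. On replicate 1 of day 5, miR-322 stood at 10.55 against 10.83 to 10.85, and without that array its difference from day 1 was 0.59 (adjusted p = 0.00109). On replicate 4 of day 1, where it was not detected, miR-497 stood at 5.68 against 6.87 to 7.10.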

How the results depend on the processing

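Over the 18 changes of a member between days, 459 of 538 alternative values kept the direction and the side of the threshold, 28 lost the call, 35 gained it and 16 changed sign, none of these with a call on both sides. The falls of miR-16 and miR-15b from day 1 to day 5 kept their sign in all 31 alternatives, and the rise of miR-322 from day 3 to day 5 in all 30. Alternatives that changed only the test, the threshold or the floor repeated the main values, so such counts are not of independent checks. Changes of sign from day 3 to day 5 were −0.034 for miR-15a and −0.056 for miR-195 with the 75th percentile of detected miRNAs. With the 75th percentile of all miRNAs they were 0.0075 for miR-15b and 0.068 for miR-16, with the median 0.084 and 0.14, and with no normalization 0.50 and 0.56. The brightest probe gave 0.13 and normexp 0.053 for miR-16. From day 1 to day 5, miR-195 turned to 0.58 with the processed spot signal, miR-322 to −0.076 and miR-497 to −0.22 with the 75th percentile of detected miRNAs, and to −0.067 and −0.21 with no normalization. Within arrays, miR-15b minus miR-16 turned to 0.088 with no normalization. The cause was not tested for any of these.

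The number of members called over time, 5 of 6, was 1 with the 75th percentile of all miRNAs, 1 with the median and 3 with the processed spot signal. For days 3 and 1 it was 3, and 5 with miRNAs detected on all 12 arrays and 6 with no normalization. For days 5 and 1 it was 3, and 1 with the 75th percentile of all miRNAs, 1 with the median, 5 at an adjusted p under 0.05 and 1 with days 1 and 5 fitted alone. For days 5 and 3 it was 1, 0 with either 75th percentile and with the median (unadjusted, limma counted 4 in the main fit), 3 with no normalization and at an adjusted p under 0.05, and 2 with either stricter detection filter, with normexp, with an intensity trend and with the replicate block. Within arrays 0 pairs were called by permutation, where 4 or 5 pairs at its smallest p could not pass after adjustment. By limma 4 pairs were called on quantile normalized and 5 on unnormalized values, both fits chosen after seeing the data. The share of all other miRNAs that passed in those limma fits was not counted.

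Leaving out each array in turn, or replicate 4 of all days, gave 3 to 6 members over time, 2 to 5 for days 3 and 1, 2 to 3 for days 5 and 1 and 1 to 2 for days 5 and 3. The lowest counts over time came without replicate 1 or 4 of day 3 or without replicate 4 of all days, and the highest without replicate 4 of day 1. The change of miR-322 from day 1 to day 3 ran from −0.16 to 0.0032, miR-15a minus miR-195 within arrays from −0.012 to 0.12 and miR-15b minus miR-16 from −0.13 to 0.035. Those within-array values with an array left out are given without a test.

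Same-numbered arrays of different days deviated together, with correlations of 0.0868 to 0.784 over 148 miRNAs, but the labels tie the numbers to nothing shared, and the numbers match the place in the row of the slide. With the replicate block, 4 members changed over time, 3 between days 3 and 1, 2 between days 5 and 1 and 2 between days 5 and 3, as miR-15b lost its day 5 call (adjusted p = 0.0134) and miR-497 gained one from day 3 to day 5 (0.00819).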
